A study of Sorghum bicolor with 177 samples.

Results

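Roots of BTx623, the reference line of Sorghum bicolor, were compared after 7, 14 and 21 d in a solution with 100 µM ZnSO4 (zinc excess) and in one with 0 µM ZnSO4 (zinc limitation). These 6 groups hold 18 of the 177 RNA-seq libraries of the series. Plants had grown in hydroponics with acclimation in control solution before the transfer, and both solutions kept the iron of the control solution, 50 µM NaFeEDTA, beside which the control held 1 µM ZnSO4. The control roots (9 libraries), the roots of the same zinc solutions at 1 h, 2 d and 4 d (17 libraries), the young leaves at 7, 14 and 21 d (20 libraries) and the late roots without iron or with 1000 µM NaFeEDTA, both with 1 µM ZnSO4 (17 libraries), were used for comparison.

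Plant roots take up zinc through transporters of the ZIP family, which bring zinc and related metals into the cell. In Arabidopsis, bZIP19 and bZIP23 are transcription factors that turn on ZIP genes when zinc is short. Surplus zinc is bound by metallothioneins, nicotianamine and sulfur-rich peptides, or moved into vacuoles and the xylem by efflux pumps. Glutathione, a sulfur-containing peptide, serves both as a precursor of metal-binding peptides and as the substrate of glutathione S-transferases, which attach it to reactive compounds.

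The values are mean TPM (a measure of transcript abundance scaled for length) of each group, as the authors deposited them, so no spread between plants can be given. Of 34129 genes, 17487 reached 5 TPM in at least 1 of the 6 columns. Of those, 3800 differed in 1 direction at 7, 14 and 21 d: 1505 (8.61%) were higher in zinc excess and 2295 (13.1%) higher in zinc limitation. At the edge of the 5 TPM rule, Sobic.010G111900 had a highest mean of 5.005 TPM and was inside, and Sobic.005G143500, at 4.999 TPM, was outside. The labels list 5, 2 and 3 libraries for zinc excess and 3, 2 and 3 for zinc limitation at 7, 14 and 21 d. The decimals of the zinc excess mean at 7 d are those of a mean over 4 libraries. For root zinc excess at 2 d and root iron excess at 7 d the labels list 2 libraries, and the decimals are those of a mean over 3. Of the 18 plants, 9 carry a number that also stands on a root or leaf library of another time, 6 of them at 1 h and 3 at 2 d.

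From 19845 to 20758 genes reached 1 TPM in each of the late zinc and control columns. As a check of the tissue, 5 Casparian strip genes (the strip is a barrier of the root endodermis) were summed. They gave 21.98 to 130 TPM in the late zinc and control root columns and at most 5.42 TPM in the late leaf columns of these solutions. The sum over 18 genes of light harvesting and Rubisco was 37.4 to 64.9 TPM in the roots of both zinc solutions and 61410 to 225780 TPM in leaves. The late iron-excess column at 7 d stands apart from the rest, since its 10 highest genes hold 35.5% of its TPM, and it enters the zinc and iron comparison alone and the alternative fits that are named as such.

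The zinc-excess column at 14 d also stands apart, in ZIP transporter levels. At 7 d and 21 d, 5 of the 16 expressed ZIP genes had less transcript in zinc excess than in control roots, but at 14 d the same 5 were above control. Across 17487 genes, 1058 (6.05%) followed that pattern. The column is a mean over 2 libraries, and since the mean is what was analysed, it is not known whether 1 or both carried these levels. The zinc limitation column at 14 d is likewise a mean over 2 libraries. It had 1084 genes at least 2-fold above control and 644 at least 2-fold below. In limitation these were 227 and 456 at 7 d, and 860 and 312 at 21 d. The part of either 14 d column in the results was not tested. Values without 14 d are given for the 10 genes with the largest differences each way. The fit without 14 d called 0 genes, the smallest adjusted p being 0.202 by limma.

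The direction of the zinc difference varied more between times than the counts at 1 time would show. At 7 d, 860 of 16008 genes (5.37%) were at least 2-fold higher in zinc excess and 264 (1.65%) at least 2-fold higher in zinc limitation. At 14 d these were 566 of 15989 (3.54%) and 624 (3.9%), and at 21 d 1157 of 16447 (7.03%) and 2152 (13.1%). At all 3 times, 102 of 17487 genes (0.583%) were at least 2-fold higher in zinc excess and 11 (0.0629%) at least 2-fold higher in zinc limitation. Leaving out 7 d, 14 d or 21 d, the numbers were 134 and 104, 429 and 96, and 252 and 12. Across 20500 genes, the log2 differences at 7 d and 21 d had a Pearson r of 0.30 (Spearman 0.28), those at 7 d and 14 d an r of -0.03 (-0.20) and those at 14 d and 21 d an r of -0.17 (-0.22). These correlations are across genes of shared columns, and genes are not independent replicates.

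**Figure D1:**
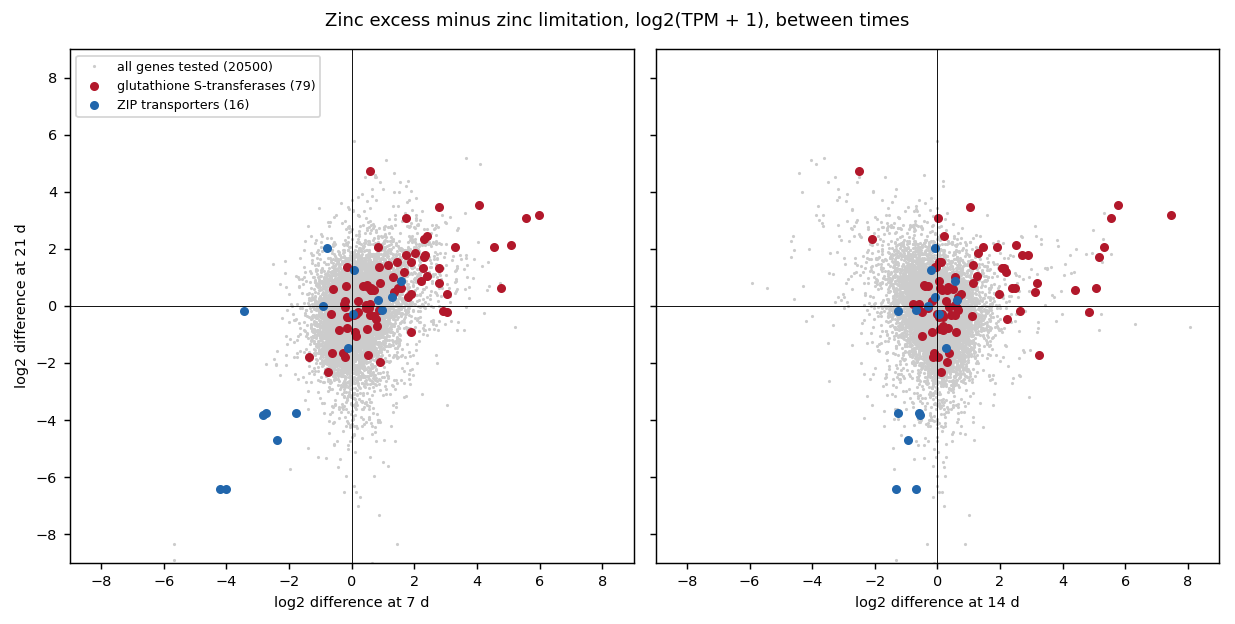
Difference in log2(mean TPM + 1), zinc excess minus zinc limitation, of each of 20500 genes (grey points) at 21 d (vertical axis) against 7 d (left) and 14 d (right), with 79 glutathione S-transferases in red and 16 ZIP transporters in blue. Transferases with large differences lie mostly at the upper right in both panels, and 6 ZIP genes lie far down at 21 d in both, at the left in the 7 d panel and closer to 0 at 14 d.

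A model across all genes, with sampling time as the replicate and treatment and time as additive terms, was fitted with limma to the 9 columns of zinc excess, zinc limitation and control. Its p-values thus rest on how far the differences between solutions vary from time to time, and say nothing of the spread among plants. At an adjusted p of 0.05 (Benjamini-Hochberg), 0 of 20500 genes (0%) were called higher and 0 (0%) lower in zinc excess than in zinc limitation, the smallest adjusted p being 0.175. At an unadjusted p of 0.05, 604 (2.95%) were higher and 399 (1.95%) lower. With the late iron columns added, 15 in all, 29 genes (0.141%) passed as higher and 1 (0.00488%) as lower. With the early columns too, 30 in all, 26 (0.127%) passed as higher and 4 (0.0195%) as lower. Of these, 17 genes passed with 15 and with 30 columns. Counts of list members below stand beside these shares over all genes. At all 3 times 8.61% were higher and 13.1% lower in zinc excess, and 0.583% and 0.0629% at least 2-fold so. At an unadjusted p of 0.05 the shares were 2.95% and 1.95%. All log2 differences below are on the log2(TPM + 1) scale, zinc excess minus zinc limitation unless said otherwise, with the standard error of the 9-column fit.

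ZIP transporters stood highest in roots without zinc. Of 17 genes in the list, 16 were tested and all 16 reached 5 TPM. Of these 16, 8 were lower in zinc excess at all 3 times and 2 higher, beside 13.1% and 8.61% of all genes. At an unadjusted p of 0.05 there were 7 lower and 2 higher, beside 1.95% and 2.95% of all genes. The median log2 difference of the list was -0.42, beside -0.06 over all genes, and -0.86, -0.44 and -0.23 at 7, 14 and 21 d. The summed level of the list at 7, 14 and 21 d was 804, 1793 and 1282 TPM without zinc, 503, 800 and 864 TPM in control and 614, 1443 and 708 TPM in zinc excess. In bulk roots, fewer cells of a type and less RNA per cell cannot be told apart.

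The 6 ZIP genes with the largest differences carry the names of Arabidopsis ZIP1, ZIP4 and ZIP5, 2 sorghum genes each, and copies named alike may share reads. Sobic.007G075700 (ZIP1-like) averaged 21.1, 152 and 138 TPM at 7, 14 and 21 d without zinc, 2.76, 12.2 and 7.00 TPM in control and 0.359, 60.1 and 0.621 TPM in zinc excess. Its 3 limitation values lie above all of its control values, while the excess values lie below control at 7 d and 21 d and above it at 14 d. The fitted log2 difference was -3.92 ± 0.88 (SE; adjusted p 0.409 by limma). Leaving out 14 d, where its difference was smallest (-1.32), gave -5.22 ± 0.58 (adjusted p 0.220 by limma). The other ZIP1-like gene, Sobic.002G083200, averaged 21.4, 76.4 and 138 TPM without zinc, 5.32, 11.7 and 20.8 TPM in control and 5.49, 31.2 and 9.21 TPM in excess. Limitation was highest at every time, and excess was close to control at 7 d. The difference was -2.27 ± 0.47 (adjusted p 0.365 by limma, 0.0394 to 0.983 over the alternatives), and the lowest of these came with 30 columns. Without 14 d the difference was -2.78 ± 0.48.

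Among the ZIP5-like genes, Sobic.007G064900 was the most abundant of the 6 at 14 d and 21 d, with 67.99, 276 and 249 TPM without zinc at 7, 14 and 21 d. Its control means were 14.4, 23.9 and 52.2 TPM, and its excess means 2.75, 170 and 1.90 TPM. For Sobic.007G064900 the log2 difference was -4.20 at 7 d, -0.69 at 14 d and -6.43 at 21 d. The fit gave -3.77 ± 1.13 (adjusted p 0.710 by limma), and -5.32 ± 0.57 without 14 d. Sobic.009G170500, the other ZIP5-like gene, stood at 15.9, 33.8 and 36.2 TPM without zinc, 3.06, 4.68 and 6.01 TPM in control and 1.55, 21.98 and 1.74 TPM in excess. Its difference was -2.36 ± 0.61 (adjusted p 0.532 by limma), and -3.25 ± 0.36 without 14 d.

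The ZIP4-like pair had the same order. Sobic.009G073100 averaged 100.7, 117 and 163 TPM without zinc, 33.2, 44.7 and 70.96 TPM in control and 13.2, 78.2 and 10.5 TPM in excess. Sobic.010G171300 averaged 10.8, 68.4 and 59.6 TPM without zinc, 1.88, 4.98 and 9.72 TPM in control and 1.25, 34.9 and 1.32 TPM in excess. In both, limitation was above control at all 3 times and excess was below it at 7 d and 21 d. The differences were -2.42 ± 0.60 (adjusted p 0.517 by limma, 0.0394 to 0.999 over the alternatives) and -2.68 ± 0.78 (adjusted p 0.685). Without 14 d they were -3.34 ± 0.36 and -3.55 ± 0.59.

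**Figure D2:**
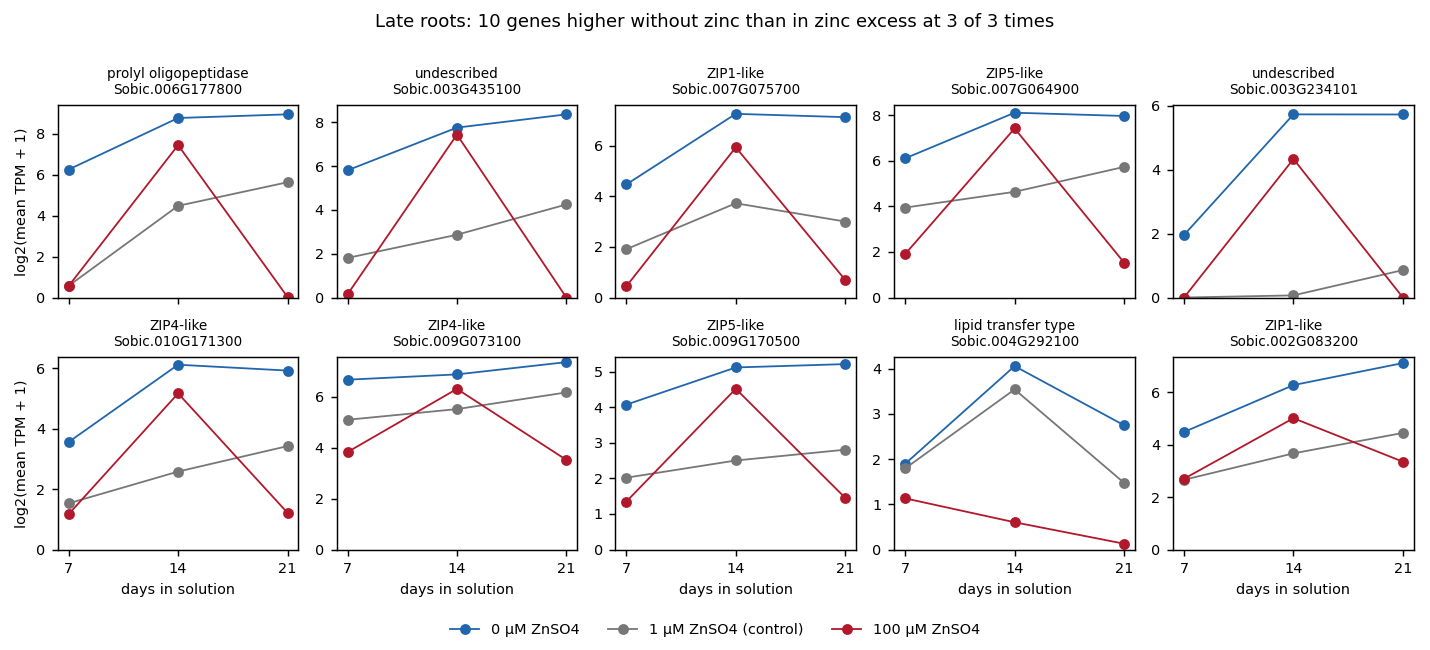
Mean TPM on a log2(TPM + 1) axis against days in solution for the 10 genes with the largest differences towards zinc limitation, in 0 µM ZnSO4 (blue), 1 µM ZnSO4 (grey) and 100 µM ZnSO4 (red), 1 point per group mean and an own axis range per panel. Blue lies above red at every time in all 10 panels, which the choice of these genes required. In 9 of them red lies above grey at 14 d and is lower at 7 d and 21 d than at 14 d.

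In 5 of the 16 ZIP genes, limitation was above control and control above excess at both 7 d and 21 d, namely all of these 6 except Sobic.002G083200. Among 17487 genes that order held for 520 (2.97%). Limitation was above control at 7, 14 and 21 d in 7 of the 16 ZIP genes and in 1535 of 17487 genes (8.78%). The seventh was the ZIP11-like Sobic.001G339600, at 51.8, 64.8 and 116 TPM without zinc, 45.3, 52.5 and 56.9 TPM in control and 47.4, 79.3 and 41.6 TPM in excess.

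The other ZIP genes differed in direction among themselves. Sobic.001G156800, ZIP10-like, was at 13.3, 42.4 and 16.6 TPM without zinc and higher at each time in excess, at 41.3, 63.6 and 31.1 TPM, a difference of 1.00 ± 0.31 (adjusted p 0.732 by limma). Another ZIP10-like gene, Sobic.001G142800, was at 13.6, 24.9 and 14.5 TPM without zinc and at 0.338, 9.73 and 12.6 TPM in excess, so that the solutions were close at 21 d. The third ZIP10-like gene, Sobic.001G142900, and the ZIP2-like Sobic.003G443700 were among the most abundant ZIP transcripts of excess roots, at 87.5, 481 and 280 TPM and at 208, 174 and 131 TPM, and neither kept 1 direction against limitation. Sobic.007G153500 (IAR1-like) stayed between 17.3 and 21.2 TPM in both zinc solutions.

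The zinc regulators themselves differed little. The bZIP19-like gene Sobic.010G267500 stood at 55.01, 53.2 and 50.8 TPM without zinc and at 57.2, 66.1 and 57.4 TPM in excess, a difference of 0.18 ± 0.15. The bZIP23-like Sobic.009G182800 was expressed at 5.29, 7.00 and 1.70 TPM without zinc and 6.60, 5.03 and 4.69 TPM in excess. Neither kept a difference as large as 2-fold at more than 1 time.

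The largest difference towards zinc limitation was in no transporter. Sobic.006G177800, which encodes a prolyl oligopeptidase family protein (serine peptidases that cut behind proline), averaged 74.9, 433 and 490 TPM without zinc, 0.486, 21.2 and 48.4 TPM in control and 0.480, 172 and 0.0170 TPM in excess. The limitation value at 7 d already exceeded every control value. Its difference was -5.31 ± 1.42 (adjusted p 0.588 by limma), and -7.30 ± 1.19 without 14 d. Of the genes without an Arabidopsis description, Sobic.003G435100 averaged 55.2, 216 and 329 TPM without zinc, 2.502, 6.30 and 18.04 TPM in control and 0.103 and 173 TPM at 7 d and 14 d in excess, and it was listed at 0 at 21 d. Sobic.003G234101 was at 2.89, 52.4 and 52.2 TPM without zinc, and in excess it was listed at 0 at 7 d and 21 d and stood at 19.2 TPM at 14 d. Their differences were -4.79 ± 1.48 and -3.03 ± 1.01, and -7.02 ± 0.69 and -3.85 ± 0.87 without 14 d. In these 3 genes the excess mean at 14 d was far above those at 7 d and 21 d.

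One of the 10 genes with the largest differences towards limitation did not have a high excess mean at 14 d. Sobic.004G292100, of the lipid-transfer type (small secreted proteins that bind lipids), stood at 2.73, 15.7 and 5.73 TPM without zinc, 2.47, 10.7 and 1.78 TPM in control and 1.19, 0.519 and 0.0937 TPM in excess, a difference of -2.28 ± 0.50 (adjusted p 0.392 by limma). Excess lay below both at every time, and limitation was above control, most at 21 d. Without 14 d the difference was -1.69 ± 0.49. Among genes chosen after their values were seen, the dirigent-like Sobic.001G256800, of a family with roles in lignan and lignin formation, also had its lowest mean in excess at every time, at 5.67, 8.995 and 6.67 TPM without zinc, 4.04, 5.98 and 4.62 TPM in control and 0.574, 2.98 and 0.804 TPM in excess. It was the 1 gene called lower with 15 columns, at -1.83 ± 0.27 (SE of that fit; adjusted p 0.0202 by limma, 0.0202 to 0.94 over the alternatives).

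Glutathione S-transferases made up the largest share of the genes higher in zinc excess among the 31 lists. The list holds 107 genes, of which 79 were tested and 73 reached 5 TPM. At all 3 times, 38 were higher and 2 lower in excess, and 16 were at least 2-fold higher and 0 at least 2-fold lower, among 102 and 11 of all genes. At an unadjusted p of 0.05 there were 36 higher and 1 lower, beside 2.95% and 1.95% of all genes tested. The median difference was 0.68, and 0.80, 0.43 and 0.57 at 7, 14 and 21 d. Without 14 d the median was 0.61. With 15 columns 9 and with 30 columns 7 members passed as higher. The count of members at least 2-fold higher was between 14 and 24 under the other thresholds, scalings and sets of times.

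Sobic.002G361100 (GSTU25-like, of the plant tau class) had the largest difference of all named genes, at 0.653, 8.78 and 12.2 TPM without zinc, 2.69, 7.68 and 5.21 TPM in control and 103, 1704 and 120 TPM in excess. Every excess mean was above every mean of the other solutions, and the 14 d mean was far above those at 7 d and 21 d. Its difference was 5.54 ± 0.74 (adjusted p 0.178 by limma, 0.0128 to 0.94 over the alternatives), and 4.59 ± 0.66 without 14 d. Sobic.003G164800 (GSTF13-like, phi class) averaged 1.74, 13.9 and 9.01 TPM without zinc, 3.26, 16.2 and 5.73 TPM in control and 128, 690 and 83.0 TPM in excess. Its difference was 4.72 ± 0.46 (adjusted p 0.175 by limma, 0.00308 to 0.94 over the alternatives), and 4.31 ± 0.58 without 14 d. Again excess does not overlap the other solutions, and control and limitation lay within 2-fold of each other at each time.

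Further transferases follow the same order and are given more briefly. The second GSTU25-like gene, Sobic.001G065900, was at 0.112, 2.06 and 0.467 TPM without zinc and 17.7, 164 and 16.1 TPM in excess, a difference of 4.45 ± 0.65 (3.80 without 14 d). Sobic.001G412700 (GSTL2-like, lambda class) was at 0.281, 4.11 and 3.41 TPM without zinc and 29.03, 204 and 17.5 TPM in excess, a difference of 3.98 ± 0.58 (3.31 without 14 d). Excess was above every limitation value in both. Sobic.003G426000 (GSTU8-like) was at 1.19, 9.14 and 25.4 TPM against 57.8, 340 and 40.1 TPM (3.49 ± 0.77, and 2.69 without 14 d), so that at 21 d it was less than 2-fold apart. Sobic.001G319500, of the GST30B type, was at 2.77, 67.6 and 25.3 TPM against 126, 393 and 116 TPM (3.25 ± 0.62, and 3.61 without 14 d). Its limitation means at 14 d and 21 d were above control, which stood at 13.3 and 11.4 TPM. The GSTU28-like Sobic.001G066000, chosen after its values were seen, was at 4.06, 13.9 and 12.8 TPM against 24.9, 96.3 and 47.1 TPM (2.29 ± 0.29).

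Enzymes of oxidation and of sugar conjugation stood beside them. Sobic.001G166401, a 2-oxoglutarate and Fe(II)-dependent oxygenase, averaged 1.04, 3.18 and 0.770 TPM without zinc, 3.42, 3.82 and 3.01 TPM in control and 24.0, 165 and 15.9 TPM in excess (4.06 ± 0.53, and 3.44 without 14 d; adjusted p 0.175 by limma). Sobic.001G082400 (CYP81D5-like, a cytochrome P450 monooxygenase) averaged 0.570, 4.98 and 16.2 TPM without zinc, 0.905, 2.44 and 3.48 TPM in control and 31.2, 228 and 49.3 TPM in excess (3.72 ± 0.65, and 2.95 without 14 d; adjusted p 0.309). Both were highest at 14 d in excess, and in the P450 gene limitation at 21 d was also above control. Sobic.002G074400 (FQR1-like, a flavodoxin-like quinone reductase that reduces quinones to less reactive forms) was at 0.120, 3.97 and 1.502 TPM without zinc, 0.580, 5.10 and 1.46 TPM in control and 10.4, 155 and 14.9 TPM in excess (3.66 ± 0.44, and 3.01 without 14 d; adjusted p 0.175). Sobic.001G500200, of an FAD/NAD(P)-binding oxidoreductase family, was at most 0.130 TPM without zinc and at 3.77, 39.6 and 4.83 TPM in excess (3.30 ± 0.59, and 2.30 without 14 d; adjusted p 0.309). In all 4 genes excess was the highest solution at each time.

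**Figure D3:**
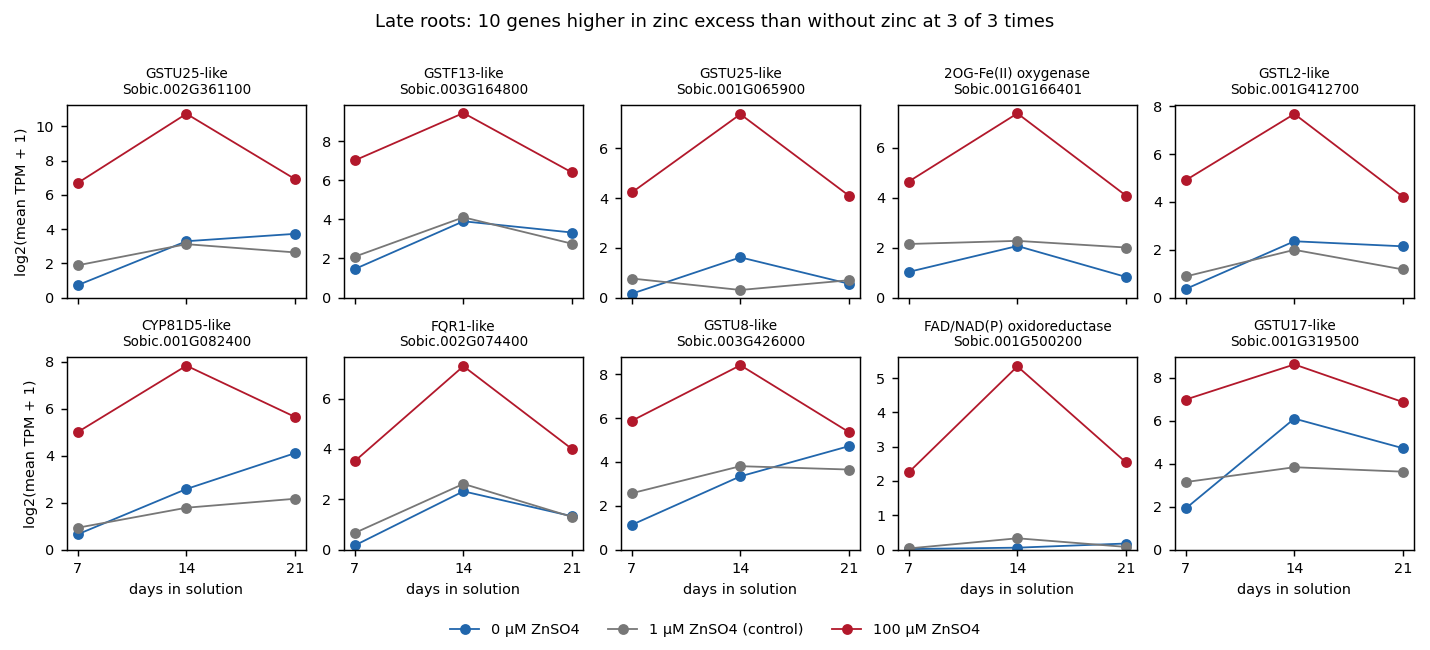
Mean TPM on a log2(TPM + 1) axis against days in solution for the 10 genes with the largest differences towards zinc excess, in 0 µM ZnSO4 (blue), 1 µM ZnSO4 (grey) and 100 µM ZnSO4 (red), with an own axis range per panel. Red lies above blue at every time in all 10 panels, which the choice of these genes required. It also lies above grey at every time and peaks at 14 d, where GSTU25-like Sobic.002G361100 reached 1704 TPM.

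As families, P450 enzymes and UDP-glycosyltransferases, which attach sugars to small molecules, were split. Of 182 P450 genes tested, 17 were higher and 13 lower at an unadjusted p of 0.05, with a median of -0.04, and 6 of 149 that reached 5 TPM were at least 2-fold higher at all 3 times. Over all genes these shares were 2.95% higher, 1.95% lower and 0.583% at least 2-fold higher, so that the members' shares lay above them. Of 124 glycosyltransferases tested, 22 were higher and 8 lower with a median of 0.09, and 9 of 95 were at least 2-fold higher at all 3 times, again above the shares over all genes. The UGT74F2-like Sobic.002G265800 was at 0.786, 4.78 and 6.10 TPM without zinc and 18.6, 107 and 23.3 TPM in excess (3.15 ± 0.45). The UGT88A1-like Sobic.003G287500 was at 1.62, 8.34 and 15.7 TPM against 30.1, 104 and 40.4 TPM (2.79 ± 0.46). Excess was the highest solution at each time in both. The second P450 gene named by rule, Sobic.003G228300 (CYP72A14-like), was at 1.76, 6.09 and 13.2 TPM against 34.2, 13.4 and 27.98 TPM (1.91 ± 0.50), and it differed from the others in having its lowest excess mean at 14 d.

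The 17 genes that passed with both 15 and 30 columns include 6 glutathione S-transferases and 3 glycosyltransferases, and beyond these lists, named after their values were seen, several enzymes of respiration and sulfur metabolism. Sobic.006G202500 (AOX1A-like, the alternative oxidase that bypasses part of the respiratory chain) averaged 0.357, 10.6 and 7.37 TPM without zinc, 1.64, 3.47 and 3.95 TPM in control and 8.74, 115 and 36.8 TPM in excess (2.78 ± 0.50; adjusted p 0.309 by limma, 0.0362 to 0.94 over the alternatives). Sobic.007G171000 (MDAR1-like, monodehydroascorbate reductase, which regenerates ascorbate) was at 12.7, 42.6 and 30.9 TPM without zinc and 53.8, 116 and 71.96 TPM in excess (1.54 ± 0.22). In both, excess was above the other solutions at each time. Sobic.005G104200, like an Arabidopsis plastid cysteine desulfurase (a supplier of sulfur for iron-sulfur clusters), was at 7.78, 12.6 and 7.53 TPM against 27.3, 40.1 and 20.8 TPM (1.55 ± 0.20). Sobic.001G453100 (HMT-1-like, a homocysteine methyltransferase that makes methionine) was at 2.73, 5.42 and 7.10 TPM against 8.86, 30.6 and 26.7 TPM (1.82 ± 0.26).

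Some genes of sulfate uptake and of the route to cysteine and glutathione stood higher in excess than in limitation at all 3 times, 9 against 2 lower. Of 37 genes, 31 were tested and 30 reached 5 TPM, with 9 higher and 1 lower at an unadjusted p of 0.05, and 2 at least 2-fold higher at all 3 times. Over all genes 8.61% were higher and 13.1% lower at all 3 times, and 2.95% and 1.95% at that p. The list's median was 0.22, but at 21 d it was -0.01. In both 2-fold members limitation was low against control. Sobic.002G314300 (APR3-like, APS reductase, a control point of sulfate reduction) averaged 20.0, 19.9 and 14.3 TPM without zinc, 58.5, 47.1 and 25.04 TPM in control and 52.5, 76.4 and 30.3 TPM in excess. Its difference was 1.42 ± 0.22 (adjusted p 0.240 by limma, 0.0362 to 0.94 over the alternatives). Sobic.001G470600, like the sulfate transporter SULTR1;3, averaged 24.2, 25.3 and 10.7 TPM without zinc, 37.4, 79.4 and 38.4 TPM in control and 49.6, 65.97 and 35.6 TPM in excess (1.33 ± 0.24; adjusted p 0.309). In both genes every limitation mean lay below every control and excess mean, while excess lay on either side of control.

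Next along the route, chosen after their values were seen, the gene for glutamate-cysteine ligase, which makes the first peptide bond of glutathione (Sobic.009G029600), was at 60.5, 99.9 and 93.0 TPM without zinc, 64.2, 83.3 and 75.6 TPM in control and 134, 199 and 116 TPM in excess (0.81 ± 0.20; adjusted p 0.506 by limma). Sulfite reductase (Sobic.009G189400) was at 68.96, 78.6 and 77.8 TPM without zinc, 53.8, 105 and 107 TPM in control and 134, 190 and 118 TPM in excess (0.93 ± 0.24; adjusted p 0.532). In these 2 genes excess was the highest of the 3 solutions at every time.

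Zinc efflux and storage genes gave no common direction. Of 42 genes, 28 were tested and 25 reached 5 TPM, with 3 higher and 1 lower at an unadjusted p of 0.05, and a median of -0.15. At all 3 times 3 were higher, 5 lower, and 2 at least 2-fold higher, beside 8.61%, 13.1% and 0.583% of all genes. Those 2 belong to the major facilitator family named after Arabidopsis ZIF1, which puts the zinc chelator nicotianamine into the vacuole. Sobic.008G084800 (ZIFL2-like) averaged 13.8, 114 and 23.4 TPM without zinc, 52.1, 70.2 and 44.1 TPM in control and 152, 340 and 64.3 TPM in excess (2.12 ± 0.47; adjusted p 0.409 by limma). Sobic.005G024800 (ZIFL1-like) averaged 3.15, 5.18 and 3.21 TPM without zinc, 2.62, 3.35 and 3.62 TPM in control and 9.14, 20.4 and 8.33 TPM in excess (1.41 ± 0.27; adjusted p 0.336). In ZIFL1-like, limitation and control were alike and excess stood above both, whereas ZIFL2-like limitation was below control at 7 d and 21 d and above it at 14 d.

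The metal pumps differed among themselves. Sobic.010G250900, like the xylem-loading zinc pump HMA2, was at 208, 258 and 125 TPM without zinc and 211, 187 and 150 TPM in excess (-0.06 ± 0.25). Except in excess at 14 d, it was above the HMA genes that follow here. Sobic.010G240500 (HMA1-like) was at 14.5, 50.0 and 47.5 TPM without zinc, 11.4, 11.5 and 12.2 TPM in control and 14.0, 28.1 and 7.44 TPM in excess (-1.13 ± 0.47; adjusted p 0.966 by limma). The latter thus resembled the ZIP genes in being above control without zinc, and also in excess at 14 d. Sobic.004G079900 (HMA5-like, a copper pump in Arabidopsis) was at 28.95, 129 and 36.7 TPM against 87.8, 207 and 49 TPM (0.89 ± 0.31; adjusted p 0.855).

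Among metal-binding products, the metallothionein Sobic.005G228700 (MT2B-like) was at 10981, 13319 and 7380 TPM without zinc, 14516, 13265 and 11744 TPM in control and 19478, 19761 and 16003 TPM in excess. Excess was the highest solution at each time, and its lowest mean was above every mean of the other 2. The difference was 0.84 ± 0.39 with an unadjusted p of 0.066. The phytochelatin synthase gene Sobic.003G024200, whose enzyme joins glutathione into metal-binding peptides, stayed between 14.8 and 18.4 TPM in both zinc solutions. Sobic.001G395900 (NAS4-like, nicotianamine synthase) was at 134, 1110 and 374 TPM without zinc, 532, 946 and 344 TPM in control and 822, 1319 and 253 TPM in excess, so that its direction turned at 21 d.

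Copper and superoxide genes were lower without zinc in part. Sobic.001G371900, for the copper and zinc superoxide dismutase CSD1, an enzyme that holds zinc, was at 127, 76.3 and 44.8 TPM without zinc, 193, 275 and 149 TPM in control and 215, 192 and 148 TPM in excess. Limitation lay below every control and excess mean. Its difference was 1.26 ± 0.26 (adjusted p 0.362 by limma, 0.0394 to 0.94 over the alternatives), and it was chosen after its values were seen. The second CSD1-like gene, Sobic.002G407900, was at 231, 104 and 115 TPM without zinc, 258, 327 and 256 TPM in control and 288, 255 and 265 TPM in excess (0.93 ± 0.27). Their copper chaperone CCS (Sobic.006G185700) was at 20.5, 16.2 and 9.95 TPM against 31.8, 26.8 and 30.8 TPM (0.95 ± 0.25; adjusted p 0.543). The list of 17 tested superoxide dismutase, catalase and ascorbate peroxidase genes had 2 higher and 1 lower at an unadjusted p of 0.05, and its median was 0.05.

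The 1 copper gene at least 2-fold apart at every time was Sobic.001G535200, of the ATOX1-related type (small copper carriers), at 1.63, 1.56 and 8.98 TPM without zinc, 2.23, 1.31 and 2.82 TPM in control and 10.6, 15.9 and 31.4 TPM in excess (2.19 ± 0.35; adjusted p 0.247 by limma, 0.0394 to 0.94 over the alternatives). Of 26 copper genes tested, 3 were higher and 0 lower at an unadjusted p of 0.05, with a median of 0.06.

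Iron genes were read from the lists on regulators, storage and chelate transport. Of 12 iron regulators tested, 1 was higher and 0 lower at an unadjusted p of 0.05, with a median of 0.01. That gene was Sobic.006G047200, like the Arabidopsis regulator of iron uptake FIT, at 70.3, 106 and 23.4 TPM without zinc, 89.3, 125 and 41.6 TPM in control and 141, 142 and 53.5 TPM in excess (0.86 ± 0.19; adjusted p 0.409 by limma). The 3 solutions kept the order limitation, control, excess at each time. The 2 ferritin genes, whose protein stores iron, had a median of -0.37, and Sobic.008G004800 (FER4-like) was at 10.7, 18.2 and 18.8 TPM against 11.2, 8.004 and 10.8 TPM. Of 18 YSL and OPT transporter genes, which carry metals bound to chelators, 3 were higher and 1 lower, with a median of -0.03. The YSL3-like Sobic.004G299600 was at 7.91, 10.8 and 1.64 TPM without zinc, 14.0, 15.6 and 5.47 TPM in control and 23.5, 20.6 and 6.08 TPM in excess (1.25 ± 0.23; adjusted p 0.325).

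**Figure D4:**
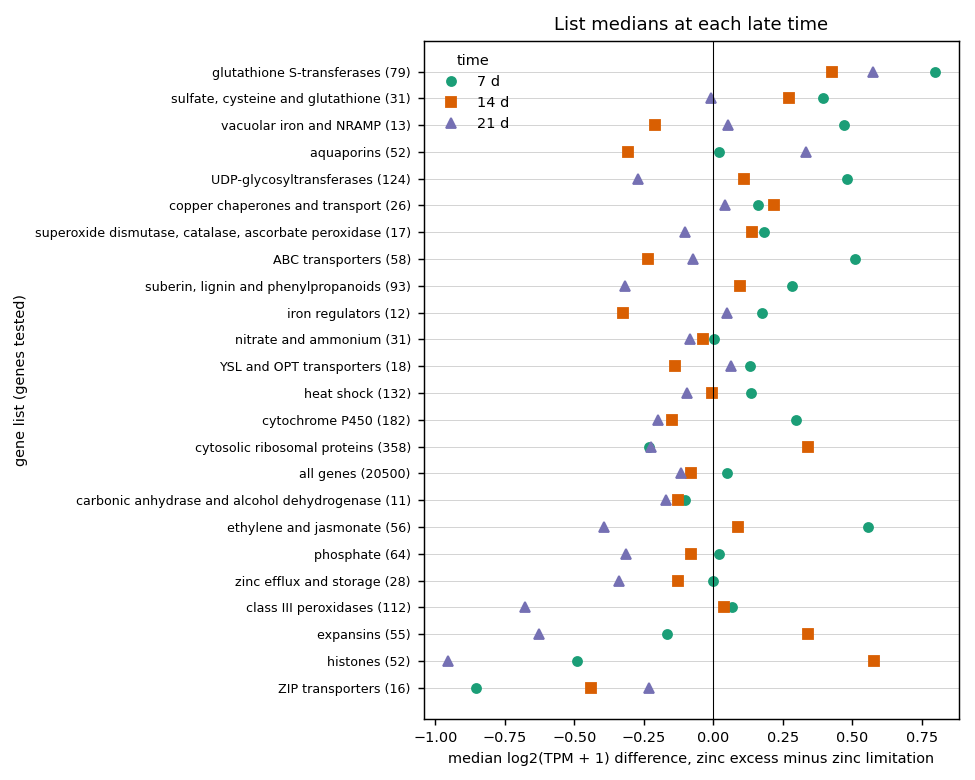
Median difference in log2(mean TPM + 1), zinc excess minus zinc limitation, of gene lists with at least 10 tested genes at 7 d (green circles), 14 d (orange squares) and 21 d (purple triangles), with the number of genes tested in brackets. Glutathione S-transferases lie above 0 and ZIP transporters below 0 at all 3 times, and the histone and expansin medians are below 0 at 7 d and 21 d and above 0 at 14 d.

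The medians of several growth and cell wall lists differed in sign between times. The 52 tested histone genes had medians of -0.49, 0.58 and -0.96 at 7, 14 and 21 d and a fitted median of -0.36, which was -0.85 without 14 d. The 55 tested expansins, which loosen cell walls, had medians of -0.17, 0.34 and -0.63, and 0 were higher and 7 lower at an unadjusted p of 0.05. The 358 tested cytosolic ribosomal protein genes had medians of -0.23, 0.34 and -0.23. At 14 d the histone list summed to 11209 TPM without zinc, 15481 TPM in control and 16199 TPM in excess. The expansin sums were 1048, 1461 and 1301 TPM, and the ribosomal sums 62538, 103822 and 86391 TPM. Limitation thus had the lowest sum of each of these lists at 14 d, and excess was above control in the histones alone. The 112 tested class III peroxidases had medians of 0.07, 0.04 and -0.68 and a fitted median of -0.18. At an unadjusted p of 0.05, 9 were higher and 2 lower, beside 2.95% and 1.95% of all genes. Of the 102 that reached 5 TPM, 14 were higher and 11 lower at all 3 times, beside 8.61% and 13.1% of all genes. The 5 Casparian strip genes summed to 93.5, 83.3 and 59.6 TPM without zinc and to 79.9, 98.4 and 21.98 TPM in excess. The last was the lowest of the late zinc and control root columns. Whether these cell markers have a part in the gene differences at 21 d was not tested.

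A few members of other lists were named by rule. Among class III peroxidases, which polymerise cell wall phenolics, Sobic.009G033500 was at 0.798, 0.452 and 0.918 TPM without zinc and 4.63, 2.42 and 6.00 TPM in excess (1.58 ± 0.23; adjusted p 0.183 by limma). The ABC transporter Sobic.010G169000 (MRP6-like, of a class that moves glutathione conjugates) was at 6.85, 11.9 and 4.77 TPM against 15.5, 33.5 and 12.8 TPM (1.25 ± 0.34; adjusted p 0.588). Excess was above every limitation mean in both. The OPR1-like Sobic.006G091700, an enone reductase, was at 0.647, 4.35 and 1.87 TPM against 2.46, 11.4 and 15.1 TPM (1.59 ± 0.43).

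A pair of small heat shock proteins, chaperones that keep damaged proteins soluble, were also named. Sobic.004G228900 was at 1.72, 4.16 and 2.55 TPM without zinc and 8.44, 237 and 11.6 TPM in excess (3.05 ± 0.78; 1.81 ± 0.30 without 14 d). Sobic.010G087800 was at 1.15, 6.97 and 6.95 TPM against 5.17, 38.2 and 16.6 TPM (1.65 ± 0.47). Both were highest in excess at 14 d. The ubiquitin and ribosomal protein L40e fusion Sobic.002G292500 was at 3.0, 6.83 and 10.8 TPM against 31.5, 15 and 30.8 TPM (1.83 ± 0.44). In phosphate and ribonuclease lists, the RNS3-like Sobic.002G385500, a secreted ribonuclease, was higher in both zinc solutions than in control, at 147, 287 and 337 TPM without zinc, 61.6, 102 and 146 TPM in control and 88.8, 202 and 202 TPM in excess (-0.65 ± 0.16; adjusted p 0.517).

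Each zinc solution was also set against control. These contrasts share the control columns with each other and the zinc columns with the comparison above, so their values are given side by side and no overlap between them is counted. For zinc excess, 0 of 20500 genes (0%) were called higher and 0 (0%) lower by limma, and 1870 (9.12%) passed an unadjusted p of 0.05. For zinc limitation, 0 (0%) were called higher and 0 (0%) lower, and 631 (3.08%) passed an unadjusted p of 0.05. At single times, zinc excess had 556, 740 and 1241 genes at least 2-fold above control at 7, 14 and 21 d, and 248, 358 and 1888 at least 2-fold below it. Zinc limitation had 227, 1084 and 860 above and 456, 644 and 312 below.

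In excess, 253 of 17487 genes (1.45%) were at least 2-fold above control at all 3 times. Among the glutathione S-transferases, 24 of the 73 that reached 5 TPM were at least 2-fold above control in excess at every time. GSTU25-like Sobic.002G361100 was 5.57 ± 0.74 above control in excess (adjusted p 0.0983 by limma) and 0.03 ± 0.74 above it in limitation. ZIP1-like Sobic.007G075700 was 3.40 ± 0.88 above control in limitation (adjusted p 1 by limma), and its difference in excess was -0.52 ± 0.88. Of the 102 genes at least 2-fold higher in excess than in limitation at all 3 times 69, and of the 11 at least 2-fold lower 9, had their highest excess mean at 14 d. The share over all genes was not counted, and both sets were chosen on these same excess columns. The counts therefore do not show whether the members differ from other genes in this.

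Early roots and leaves were read for the same genes. At 2 d and 4 d, 4836 of 16283 root genes (29.7%) were higher in excess and 2876 (17.7%) higher in limitation at both times, and 272 (1.67%) and 236 (1.45%) at least 2-fold so. Of the 102 genes higher in late excess roots, 88 reached 5 TPM at 2 d or 4 d, where 76 were higher in excess at both times and 45 at least 2-fold. Of the 11 genes higher in late limitation, 8 reached 5 TPM, and all 8 were higher in limitation at both times, 4 at least 2-fold. GSTU25-like Sobic.002G361100 was at 2.09, 1.17 and 12.0 TPM at 1 h, 2 d and 4 d without zinc and 6.28, 451 and 78.4 TPM in excess. ZIP5-like Sobic.007G064900 was at 21.3, 131 and 112 TPM without zinc, 14.3, 24.9 and 24.3 TPM in control and 12.5, 1.01 and 3.37 TPM in excess. At 2 d and 4 d excess was thus below control in that gene, as at 7 d and 21 d. The late difference minus the early one was called for 0 genes higher (0%) and 0 lower (0%) by limma, and 425 of 20500 (2.07%) passed an unadjusted p of 0.05.

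Young leaves were read at the late times. At 7, 14 and 21 d, 2435 of 14857 leaf genes (16.4%) were higher in excess and 755 (5.08%) higher in limitation at all times, and 16 (0.108%) and 12 (0.0808%) at least 2-fold so. Of the 102 excess genes, 57 reached 5 TPM in leaves, where 7 kept the direction, 7 had the opposite one at every time and 0 were at least 2-fold higher. Of the 11 limitation genes, 8 reached 5 TPM, where 5 kept the direction, 1 had the opposite one and 2 were at least 2-fold apart. The difference between these shares was not tested. The prolyl oligopeptidase gene Sobic.006G177800 averaged 1.75, 206 and 1167 TPM in leaves without zinc, 0.331, 16.9 and 28.1 TPM in control and 0.181, 0.224 and 11.4 TPM in excess. ZIP1-like Sobic.007G075700 averaged 35.8, 150 and 342 TPM in leaves without zinc, 30.6, 39.3 and 50.3 TPM in control and 23.7, 23.8 and 32.7 TPM in excess. In both, leaf excess was below leaf control at all 3 times, 14 d included. The oxygenase Sobic.001G166401, higher in excess in roots, averaged 46.4, 43.1 and 19.7 TPM in leaves without zinc and 13.5, 6.20 and 21.2 TPM in leaves of zinc excess, so that it was lower in excess at 7 d and 14 d. GSTU25-like Sobic.002G361100 was at most 1.87 TPM in these leaf columns. ZIFL2-like Sobic.008G084800 was at most 0.0793 TPM there. The root minus leaf difference was called for 0 genes higher (0%) and 0 lower (0%) by limma, and 681 of 15522 (4.39%) passed an unadjusted p of 0.05.

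**Figure D5:**
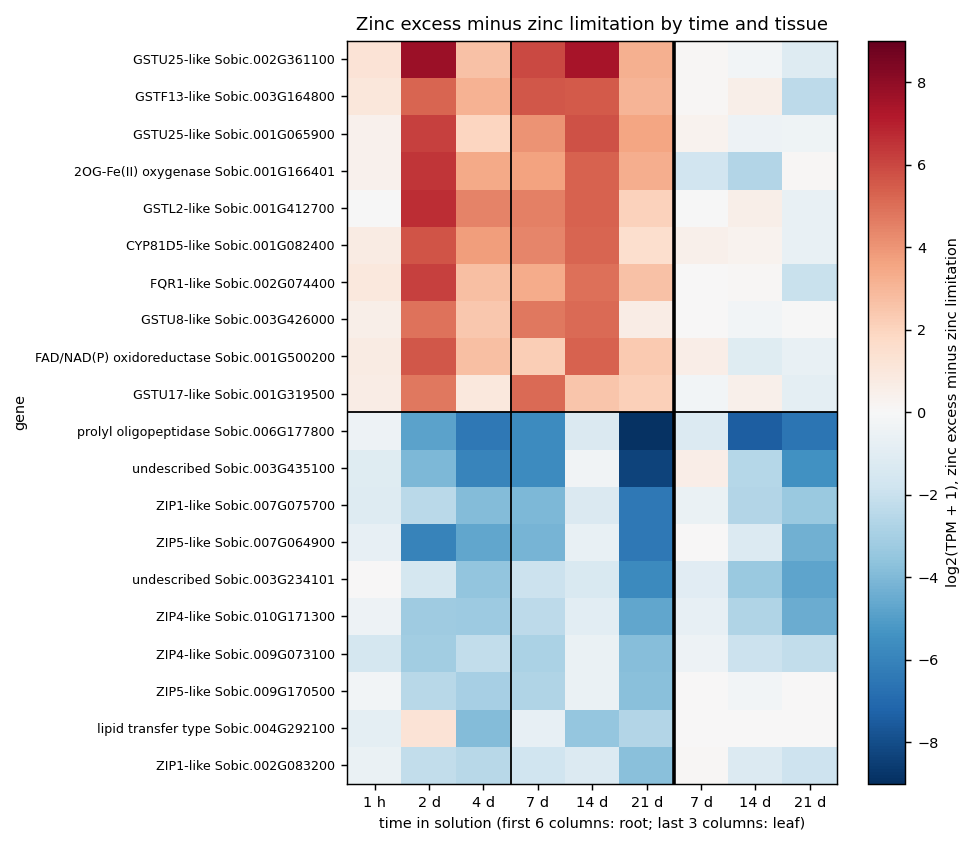
Difference in log2(mean TPM + 1), zinc excess minus zinc limitation (red higher in excess, blue higher in limitation), of the 10 genes with the largest differences each way, in roots at 1 h to 21 d (left 6 columns) and in leaves at 7, 14 and 21 d (right 3). The upper 10 genes are red in roots from 2 d on, and in leaves they lie between 0.57 and -2.61, the lowest being the oxygenase Sobic.001G166401 at 14 d. Most of the lower 10 are blue in roots from 2 d on and in leaves at 14 d and 21 d.

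The zinc difference was last set against the iron difference (1000 against 0 µM NaFeEDTA) of late roots, in a fit of 15 columns. Zinc minus iron was called higher for 21 of 20500 genes (0.102%) and lower for 0 (0%) by limma. Leaving out the iron-excess column at 7 d, 0 genes were called, so none of these 21 calls holds without that column. Of the genes named above, FQR1-like Sobic.002G074400 was 3.72 higher in the zinc than in the iron contrast (adjusted p 0.0222), with iron means between 0.195 and 4.01 TPM in all 6 columns. The oxygenase Sobic.001G166401 was 4.15 higher (adjusted p 0.0430), with iron means between 1.18 and 9.88 TPM. The 3 described genes with the largest such values were high without iron and low in its excess. Of these, the F-box gene Sobic.003G326400 was at 105, 76.9 and 113 TPM without iron and 2.08, 12.0 and 0.461 TPM in iron excess, against 8.62, 33.2 and 7.10 TPM without zinc and 21.8, 39.6 and 35.4 TPM in zinc excess.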

How the data were processed

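Poly-A RNA-seq of hydroponic roots and leaves was quantified with DRAGEN, per the submitters' processing notes. Genome build and annotation: not given in the sources used here. As the values stand, the deposited table holds the authors' mean TPM per tissue, time and treatment. In 8 columns the repeated rows take the deposited sum past the range of TPM, so these were entered as signal. They too hold the authors' deposited mean TPM. Of 34924 rows, 795 repeats were dropped, which left 34129 genes. Each was named by its Arabidopsis match in the table where it had one (23825 genes). TPM keeps no read depth, so depth is unknown and no counting intervals are given.

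Differences are of log2(TPM + 1). Genes with a mean of at least 1 TPM over the 31 root columns were fitted with limma 3.58.1 in R 4.3.3 (treatment and time as additive terms, trended variance), with Benjamini-Hochberg adjustment over all genes tested and a threshold of 0.05. Tables and figures used Python 3.11.15, numpy 2.4.6, pandas 2.3.3 and matplotlib 3.10.9. In simulated data for the 9-column fit on 20500 genes, 16 of 100 genes changed by 1 on the log2 scale were recovered. Of 100 changed by 2, 83 were recovered, and 7.48% of the calls were false. In the deposited columns the same fit called 0 genes between excess and limitation. GSTU25-like Sobic.002G361100, at 5.54 ± 0.74, had an adjusted p of 0.178 by limma. The simulated noise was drawn independently for each gene and column, so shifts shared by many genes of 1 column were not in it. The recovered shares therefore need not hold for the deposited columns, and whether they do was not tested.

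Genes were named by rule: the 10 largest differences each way of 1 sign at all 3 times with at least 5 TPM, members of the zinc and iron lists at least 2-fold apart at all 3 times, up to 2 such members of each other list, and the genes that passed a test of a difference between contrasts, with the 3 largest of these. That gave 37 genes; the rest were picked with their values in view. The genes, the 31 lists and the tests were chosen with earlier results of these data known. As alternatives, a pseudocount of 0.1, other filters, rescaled columns, no variance trend, other sets of columns and fewer times were tried.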

Additional observations from a re-analysis of the deposited data

Results flagged for a closer look

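These 5 genes had a zinc difference (excess minus limitation) that differed from the iron difference (excess minus limitation) of late roots in limma's test of the difference itself. The values are on the log2 scale. The oxygenase Sobic.001G166401 stood at 4.15 (adjusted p 0.0430) and FQR1-like Sobic.002G074400 at 3.72 (adjusted p 0.0222), both with a large zinc and a small iron difference. The F-box gene Sobic.003G326400 stood at 5.88 (adjusted p 0.0219), the DUF1230 gene Sobic.001G329400 at 5.13 (adjusted p 0.0219) and FDH-like Sobic.004G265000, named after formate dehydrogenase, at 4.93 (adjusted p 0.0176). In the last 3 the zinc differences were 1.22 ± 0.52, 0.92 ± 0.45 and 1.26 ± 0.46 (SE). Sobic.001G329400 was at 122, 100.4 and 127 TPM without iron and 4.91, 17.9 and 1.24 TPM in iron excess. Sobic.004G265000 was at 245, 743 and 256 TPM without iron and 15.7, 142 and 8.63 TPM in iron excess. None of the 5 was called when the iron-excess column at 7 d, in which 10 genes hold 35.5% of the TPM, was left out.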

How the results depend on the processing

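No paired analysis was possible because the columns are group means and carry no replicate numbers. Between excess and limitation, 0 genes were called either way by limma under the other pseudocount, filters, scaling, variance trend and with the 6 zinc columns alone. Genes called higher and lower were 29 and 1 with 15 columns and 26 and 4 with 30 columns, and 2 and 0 without 21 d (0 to 2 higher over the left-out times). For excess against control they were 110 and 4 with 15 columns, 149 and 5 with 30 columns, and 1 and 0 without 21 d (0 to 1 higher). Limitation against control and late minus early gave 0 under each alternative run. Root minus leaf gave 1 and 1 with a filter of 5 TPM, and 1 and 0 without 14 d and 9 and 1 without 21 d. Zinc minus iron gave 0 higher without a filter, 45 and 2 with a filter of 5 TPM, 13 higher after rescaling columns to a median ratio of 1, and 0 without the iron-excess column at 7 d. Leaving out 7, 14 or 21 d gave 0, 42 and 35 higher and 0, 4 and 1 lower. Genes at least 2-fold apart at all times were 102 higher in excess and 11 in limitation. Under alternatives chosen after seeing the data they were 136 and 20 with a pseudocount of 0.1, 78 and 7 at 20 TPM or more, and 111 and 9 after rescaling. Leaving out 1 time gave 134 to 429 higher in excess and 12 to 104 in limitation (96 without 14 d, 252 and 12 without 21 d). Rescaling moved the median of all genes from -0.14 to -0.00 for late minus early and from -0.13 to 0.00 for root minus leaf. Of the named genes' values, 377 kept their direction and side of the threshold and 23 passed it where the 9-column fit had not, with 0 reversed. For zinc minus iron 26 were kept and 19 no longer passed. The cause of these changes was not tested. As group means without read depth, the values cannot show the spread between plants or the counting error of low genes.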
